A study of Mus musculus with 8 samples.

Results

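Spi1, which encodes the transcription factor PU.1, was examined together with 6 other genes for factors that set myeloid cell fate: Spib, Irf8, Irf4, Gfi1, Gfi1b and Klf4. The 7 genes were chosen by name, and each was read from the probe set that the platform annotation gives to it alone, the brightest where a gene has several. Every one of the 7 had exactly 1 such probe set among the 19938 genes measured in this way on the arrays. The cells were cultures of c-Kit-positive mouse bone marrow from animals with floxed Runx1 and Cbfb alleles. All cultures, controls included, carried transduced MLL-AF9, a leukaemia fusion protein, and CreERT2, a Cre recombinase that works only with 4-hydroxytamoxifen (4OHT), coexpressed with puromycin resistance and selected over several replatings. Control cultures received ethanol and the others 1 µM 4OHT for 24 h in cytokine-containing methylcellulose, and the 8 arrays cover 2 clones with 2 biological replicates each. The ethanol and 4OHT cultures that share a clone and a number form a set, which gives 4 sets; each clone is a single transduced line. Animal ages are not in the labels, and no 4OHT culture without the floxed alleles was analysed here, so an effect of 4OHT or of active Cre cannot be told apart from that of the deletion.

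PU.1 is an ETS family factor that binds purine-rich sites and opens enhancers of myeloid genes, and its amount matters for the choice between macrophage, granulocyte and lymphoid fates. Spi-B is its close relative in B cells and plasmacytoid dendritic cells. IRF8 and IRF4 bind DNA weakly alone and join PU.1 on composite sites; IRF8 favours monocytes and dendritic cells over granulocytes. GFI1 and GFI1B are zinc finger repressors that recruit the demethylase LSD1, GFI1 in granulocyte precursors and GFI1B in erythroid and megakaryocyte cells. KLF4 acts below PU.1 and IRF8 in monocyte differentiation. RUNX1, with its partner CBFB, is known to bind the distal upstream enhancer of Spi1 and to regulate the gene.

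Some facts bear on every value below. Runx1 signal was higher, not lower, in all 4 cultures labelled deleted (limma estimate 0.52 ± 0.04 on the log2 scale, SE, n = 4 sets; adjusted p = 1.64e-05), while Cbfb stood at -0.18 ± 0.05 (adjusted p = 0.128); a probe set can lie outside the deleted exons, so the deletion itself was not checked, and the cultures are called labelled deleted. Of the 8 progenitor and leukaemia markers, 6 (Mpo, Elane, Ctsg, Prtn3, Hoxa9 and Meis1) had log2 levels between 9.92 and 13.36 in every array, and Kit had a mean of 9.77. Cd34, a surface marker of stem and progenitor cells, separated the clones, at 5.58 to 5.92 in the 4 arrays of clone 1 and 11.11 to 11.57 in those of clone 2. None of the measured markers of dendritic, B, T and NK, mast, erythroid and megakaryocyte cells passed, where 0.953% of all genes did. The mean level of each of these lists per array lay between 4.87 and 6.17. Single markers stood higher, among them the basophil gene Mcpt8 with a mean of 8.39 and the B cell gene Cd79b with 7.96. Levels of Cd79b spread widely over the control arrays (SD 1.74). In bulk cultures fewer cells of a type and less RNA per cell cannot be told apart.

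Promoter sequence from RefSeq (GRCm38.p6) was matched for 6 of the 7 genes, all but Spi1, and gave 8 transcription starts. The 250 bases before each start were searched on both strands for the RUNX letters TGTGGT or TGCGGT, the PU box GAGGAA and the GFI core AATCA. RUNX letters stood before 1 of the 8 member starts, against 18.6% of 32851 starts in the table. The PU box stood before 1 of 8, against 23.3%, and the GFI core before 3 of 8, against 33.7%. The windows that hold a RUNX match, a PU box match and the closest GFI matches are shown because they carry letters that RUNX1, PU.1 or the GFI factors are known to bind. Capitals mark RUNX letters in the Irf8 window, the PU box in the Irf4 window and GFI cores in the Gfi1b window, on either strand, so that the first pair read as their reverse complement; a match is only a description of the letters. The Irf8 window (chr8:120738389-120738638, plus strand) lies before the second of 2 listed starts, and its RUNX match begins 197 bases before it. The PU box of the Irf4 window (chr13:30748983-30749232, plus strand) begins 19 bases before the start. In the Gfi1b window (chr2:28621983-28622232, minus strand) the GFI cores begin 45 and 33 bases before the start.
Irf8: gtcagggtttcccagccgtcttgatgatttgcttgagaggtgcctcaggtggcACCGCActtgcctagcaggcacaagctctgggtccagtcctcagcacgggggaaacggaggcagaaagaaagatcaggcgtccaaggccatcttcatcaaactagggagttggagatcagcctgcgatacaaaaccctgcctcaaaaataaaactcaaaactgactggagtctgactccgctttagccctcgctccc
Irf4: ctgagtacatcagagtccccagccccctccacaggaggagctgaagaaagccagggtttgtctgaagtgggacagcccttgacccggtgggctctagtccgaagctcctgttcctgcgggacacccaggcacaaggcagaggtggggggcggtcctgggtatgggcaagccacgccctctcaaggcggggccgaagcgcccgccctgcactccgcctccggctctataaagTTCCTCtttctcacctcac
Gfi1b: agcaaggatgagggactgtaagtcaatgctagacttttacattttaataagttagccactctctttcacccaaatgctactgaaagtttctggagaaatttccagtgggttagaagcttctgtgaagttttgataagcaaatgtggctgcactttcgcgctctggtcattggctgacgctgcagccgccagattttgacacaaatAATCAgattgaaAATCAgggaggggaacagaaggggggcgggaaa

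Spi1 was the only one of the 7 genes that passed, and its change was small. The log2 level of its probe set, 10473809, was 11.50 and 11.55 in the control arrays of clone 1 and 11.58 and 11.61 in those of clone 2. In the arrays labelled deleted it was 11.35 and 11.37 in clone 1 and 11.52 and 11.44 in clone 2. Within each clone both labelled-deleted arrays lay below both controls, although the groups overlap across clones, because the clone 2 replicate 1 array labelled deleted was above the lowest control of clone 1. The mean went from 11.56 ± 0.04 (SD, n = 4) to 11.42 ± 0.07 (SD, n = 4). Spi1 fell in 4 of 4 sets, with log2 differences of -0.15, -0.18, -0.07 and -0.17. The limma estimate was -0.14 ± 0.03 (SE, n = 4 sets; adjusted p = 0.0465), a change of -9.41% with a 95% interval from -13.4% to -5.21%.

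Against this 1 of 7, 0.953% of all genes passed in either direction, and 0.471% passed as lower. The smallest fall was in clone 2, replicate 1. The Spi1 call sits close to the threshold. It ended when the set block was dropped (adjusted p = 1) or replaced by clone (0.408) or by clone plus number (0.176). Other changes that ended it were no variance trend (0.679), robust moderation (0.0539), centred arrays (0.332) and testing every probe set (0.379). It also ended in the sets numbered 1 alone (0.193) and without the set of clone 1 replicate 1 (0.111) or clone 1 replicate 2 (0.430). Over all 17 alternatives the estimate ran from -0.18 to -0.11. Changing the block, the variance trend or moderation, or the probe sets tested cannot move it in this balanced design. Those alternatives therefore say nothing about its direction or size.

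**Figure D1:**
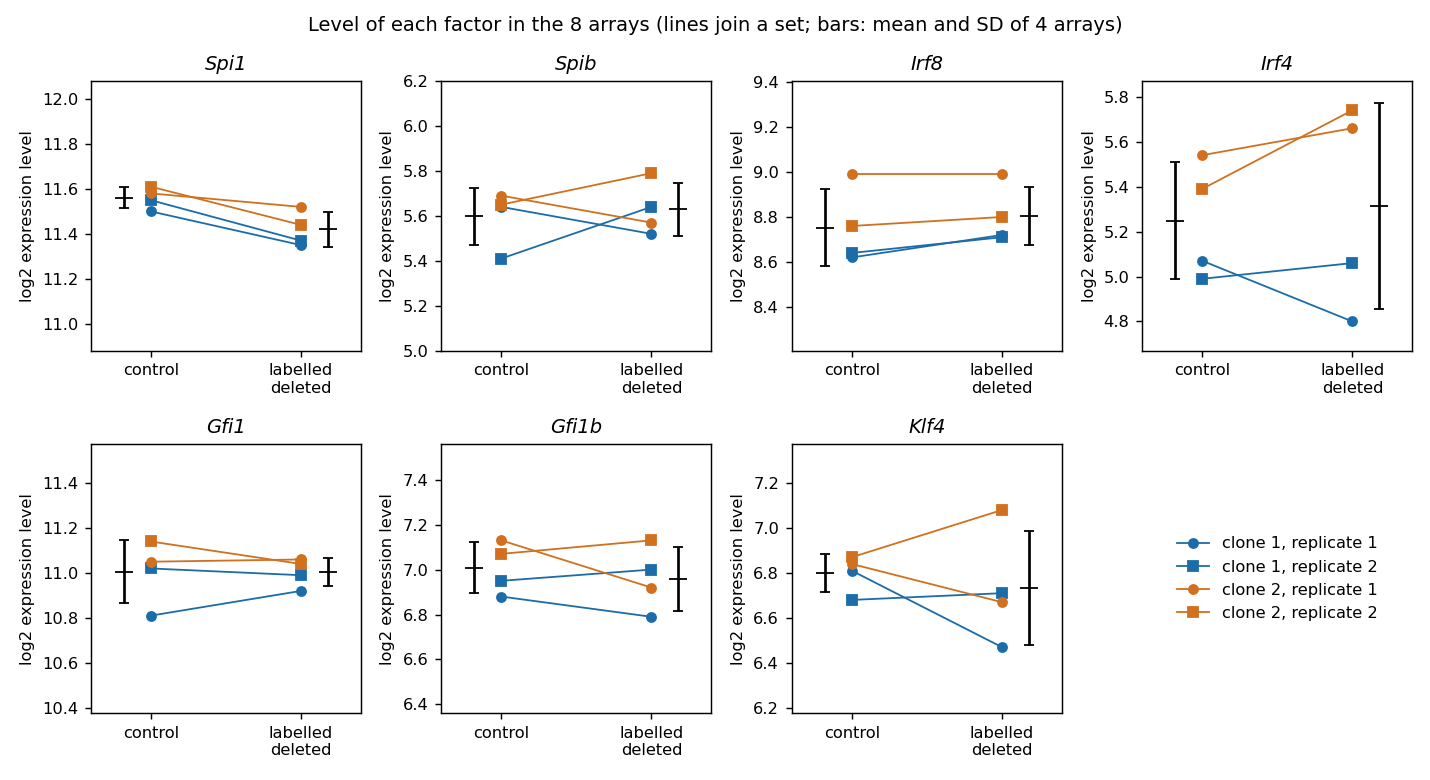
Log2 expression level of the 7 genes in control arrays and arrays labelled deleted. Colours are clones, symbols are replicate numbers, lines join the arrays of a set, and bars give the mean and SD of 4 arrays; each panel has its own axis range. Lines for Spi1 all slope down, those for Irf8 are level or rise slightly, and those of the other genes slope both ways.

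Spib, the other ETS member, had no shared direction. Its log2 level was 5.64 and 5.41 in the clone 1 controls and 5.69 and 5.65 in the clone 2 controls, and 5.52, 5.64, 5.57 and 5.79 in the labelled-deleted arrays of the same sets. The array of clone 1 replicate 2 was the low one among controls, and the groups overlap. The log2 difference was 0.03 ± 0.09 (SE, n = 4 sets; adjusted p = 1), with an interval from -10.2% to 16.3%. The deposited values carry no detection call, so whether Spib and Irf4 lie above background was not tested.

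Irf8 differed little between the groups and more between the clones. Clone 1 stood at 8.62 and 8.64 in controls and at 8.72 and 8.71 in arrays labelled deleted. Clone 2 stood at 8.99 and 8.76 in controls and at 8.99 and 8.80 in arrays labelled deleted. Thus all clone 2 arrays were above all clone 1 arrays, whatever the treatment. The set differences were 0.10, 0.07, 0.0050 and 0.03, above 0 in 4 of 4 sets, but the change of 0.05 ± 0.06 (SE, n = 4 sets) did not pass (adjusted p = 1; interval -4.57% to 12.6%). With arrays centred on their median the set of clone 2 replicate 2 turned to -0.07. A single direction in all 4 sets was found for 2 of the 7 genes, Spi1 and Irf8, and for 13.1% of all genes.

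Irf4, best known from lymphoid and plasma cells, had the widest spread of the 7. Its log2 level was 5.07 and 4.99 in clone 1 controls and 5.54 and 5.39 in clone 2 controls. The labelled-deleted arrays read 4.80 and 5.06 in clone 1 and 5.66 and 5.74 in clone 2. The clones did not overlap, while the groups did. The change was 0.07 ± 0.09 (SE, n = 4 sets; adjusted p = 1), made of -0.27 in clone 1 replicate 1 and of 0.07, 0.11 and 0.35 in the other sets.

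Gfi1 had the change nearest to 0. It was at 10.81 and 11.02 in clone 1 controls and 11.05 and 11.14 in clone 2 controls, and at 10.92, 10.99, 11.06 and 11.04 in the labelled-deleted arrays of the same sets. The lowest value is the clone 1 replicate 1 control, and the labelled-deleted arrays lie inside the control range. The log2 difference was -0.0028 ± 0.04 (SE, n = 4 sets; adjusted p = 1), and its 95% interval ran from -5.61% to 5.53%, the narrowest after that of Spi1.

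Gfi1b and Klf4 each fell in some sets and rose in others, and the 2 genes shared their sign in every set. Gfi1b read 6.88, 6.95, 7.13 and 7.07 in the controls of clone 1 replicates 1 and 2 and clone 2 replicates 1 and 2, and 6.79, 7, 6.92 and 7.13 in their labelled-deleted partners. Klf4 read 6.81, 6.68, 6.84 and 6.87 in controls and 6.47, 6.71, 6.67 and 7.08 in the partners, so that the lowest and the highest value both came from arrays labelled deleted. The log2 difference was -0.04 ± 0.08 for Gfi1b and -0.07 ± 0.10 for Klf4 (SE, n = 4 sets; adjusted p = 1 for each). The intervals ran from -14.0% to 9.72% and from -17.4% to 10.1%.

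Of the 7 genes, none had all 4 labelled-deleted arrays on one side of all 4 controls, which was found for 1.17% of all genes. With 4 sets, an exact sign-flip test of 1 gene cannot give a two-sided p below 0.125, so the calls rest on the fit across all genes.

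The direction of several genes followed the replicate number rather than the clone. Spib, Gfi1b and Klf4 were lower in the labelled-deleted array of both sets numbered 1 and higher in both sets numbered 2, and Gfi1 showed the reverse. The first pattern held for 3 of the 7 genes and 15.4% of all genes, and the second for 1 of 7 and 9.46%. For Klf4 the set differences were -0.34 and -0.17 in sets numbered 1 and 0.03 and 0.21 in sets numbered 2. In a fit with an effect per number, chosen after these values were seen, the effect in sets numbered 2 minus that in sets numbered 1 was 0.38 ± 0.14 for Klf4 (SE; adjusted p = 0.20), 0.30 ± 0.13 for Spib (0.247), 0.29 ± 0.15 for Irf4 (0.328), 0.20 ± 0.13 for Gfi1b (0.397) and -0.12 ± 0.07 for Gfi1 (0.357). Spi1 differed between the numbers by -0.07 ± 0.06 (0.522). No gene passed in that contrast (0% of 19938 by limma), while 3589 genes had an unadjusted value under 0.05.

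A shift over the whole array also differed between the replicate numbers. Over the 9969 dimmer genes the median set difference was -0.05 and -0.07 in the sets numbered 1 of clone 1 and clone 2, and 0.03 and 0.10 in those numbered 2. Over the 9969 brighter genes the signs were turned, at 0.05 and 0.02 in sets numbered 1 and -0.0024 and -0.06 in sets numbered 2. Spib and Irf4 are among the dimmer genes. Klf4 and Gfi1b lie just above the median gene, and so among the brighter genes, whose median differences had signs opposite to theirs. Spi1, Irf8 and Gfi1 are brighter genes as well. Gfi1 shared the sign of the brighter medians in every set (0.11 and 0.0042 in sets numbered 1, -0.03 and -0.09 in sets numbered 2). Spi1 fell and Irf8 rose in all 4 sets. With arrays centred on their median, Gfi1b in clone 2 replicate 2 turned from 0.06 to -0.04. Klf4 (0.02 and 0.11) and Spib (0.21 and 0.04) stayed above 0 in both sets numbered 2. Spi1 centred in this way was uneven between sets, at -0.17 and -0.20 in clone 1 replicates 1 and 2. In clone 2 it was -0.03 in replicate 1 and -0.27 in replicate 2. The part of this shift in the members' differences was not tested.

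**Figure D2:**
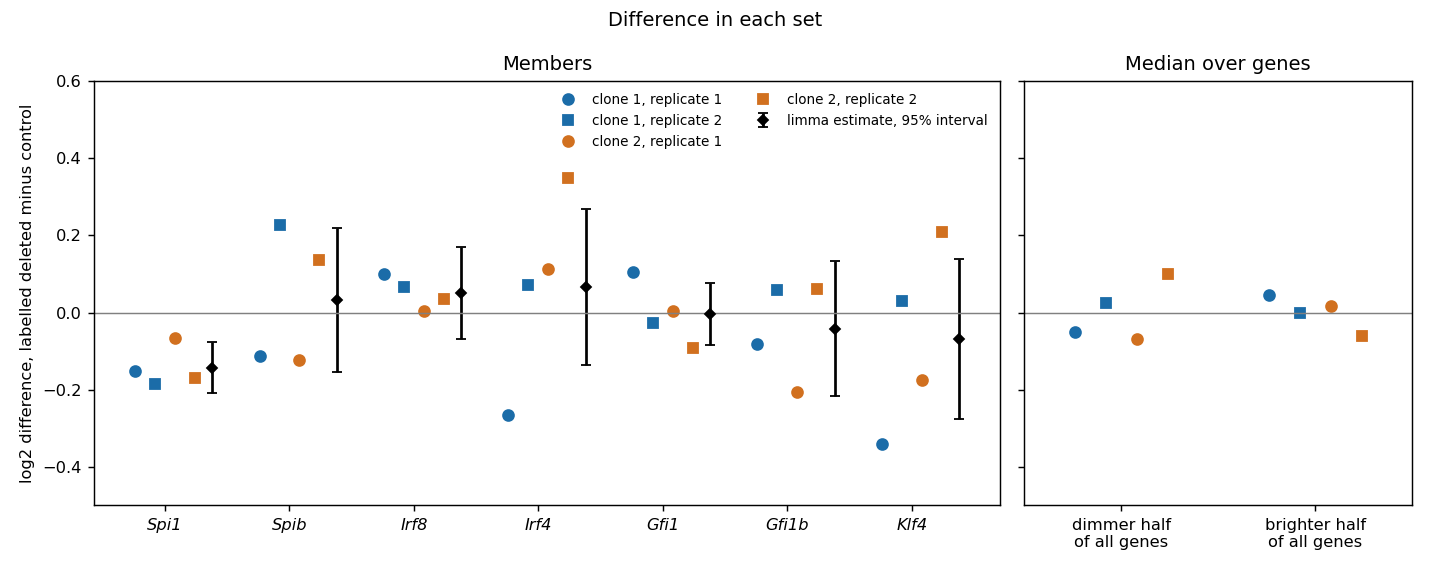
Log2 difference between the labelled-deleted and the control array of each set, for the 7 genes (left) and as the median over the dimmer and the brighter genes (right). Diamonds give the limma estimate with its 95% interval. Only the interval of Spi1 leaves out 0, and squares (replicate 2) lie above circles (replicate 1) for Spib, Gfi1b, Klf4 and the dimmer genes.

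The clones were then set side by side. The Spi1 change was -0.17 ± 0.05 in clone 1 (SE; adjusted p = 0.335) and -0.12 ± 0.05 in clone 2 (0.675), and the difference between these changes was 0.05 ± 0.06 (1.00). None of the 7 genes passed in either clone alone, where 0.181% of genes passed in clone 1 and 0.682% in clone 2. The widest difference between clones was that of Irf4, at -0.10 ± 0.13 in clone 1 and 0.23 ± 0.13 in clone 2, a difference of 0.33 ± 0.19 that did not pass (1.00). None of the 7 genes passed for this difference, as against 0.0100% of all genes.

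Among control arrays all 7 genes were higher in clone 2 than in clone 1, as were 59.8% of all genes. Irf4 had the largest gap, 0.44 ± 0.12 or 1.36-fold (SE; adjusted p = 0.0746), followed by Irf8 at 0.24 ± 0.11 (0.436), Gfi1b at 0.19 ± 0.13 (0.662) and Gfi1 at 0.18 ± 0.08 (0.398). Spib, Klf4 and Spi1 had gaps of 0.15 ± 0.12, 0.12 ± 0.15 and 0.06 ± 0.06, with adjusted p from 0.731 to 0.845. None of the 7 passed, whereas 3.97% of genes did. With array weights the Irf4 gap passed (0.0108). Over all 8 arrays the clones did not overlap for Irf8, Irf4 and Gfi1, or 3 of 7 genes, against 19.7% of all genes. A difference between the clones describes these 2 lines.

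The levels of some genes ran close to that of Spi1 across the 8 arrays. The 3 with the highest Pearson correlation of log2 level, among 3148 genes with an SD of at least 0.2, were Inpp5j (r = 0.93), a phosphoinositide 5-phosphatase, Cebpe (0.88), a factor of late granulocyte maturation, and Ncf1 (0.88), the p47 subunit of the phagocyte NADPH oxidase. The arrays share the treatment, the clones and the sets, so these correlations over 8 arrays are descriptions and carry all of those sources. Since Spi1 was lower in all 4 sets, genes chosen in this way tend to be lower too. Spi1 itself ran only from 11.35 to 11.61 over the 8 arrays, and the SD limit keeps genes that vary more. Differences larger than that of Spi1 are thus favoured by the choice, and those between the groups are given with no test. Inpp5j was at 8.55 and 8.62 in clone 1 controls, 8.68 and 8.81 in clone 2 controls, and 8.13, 8.16, 8.41 and 8.51 in their partners, with no overlap between groups. The log2 difference was -0.36 ± 0.06 (SE, n = 4 sets). Ncf1 was at 11.01 in both clone 1 controls and at 11.41 and 11.17 in clone 2 controls, and at 10.68, 10.55, 10.96 and 10.55 in the partners, again with the groups apart. The log2 difference was -0.47 ± 0.04. That of Cebpe was -0.34 ± 0.05, and its groups overlap because clone 2 lay above clone 1.

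**Figure D3:**
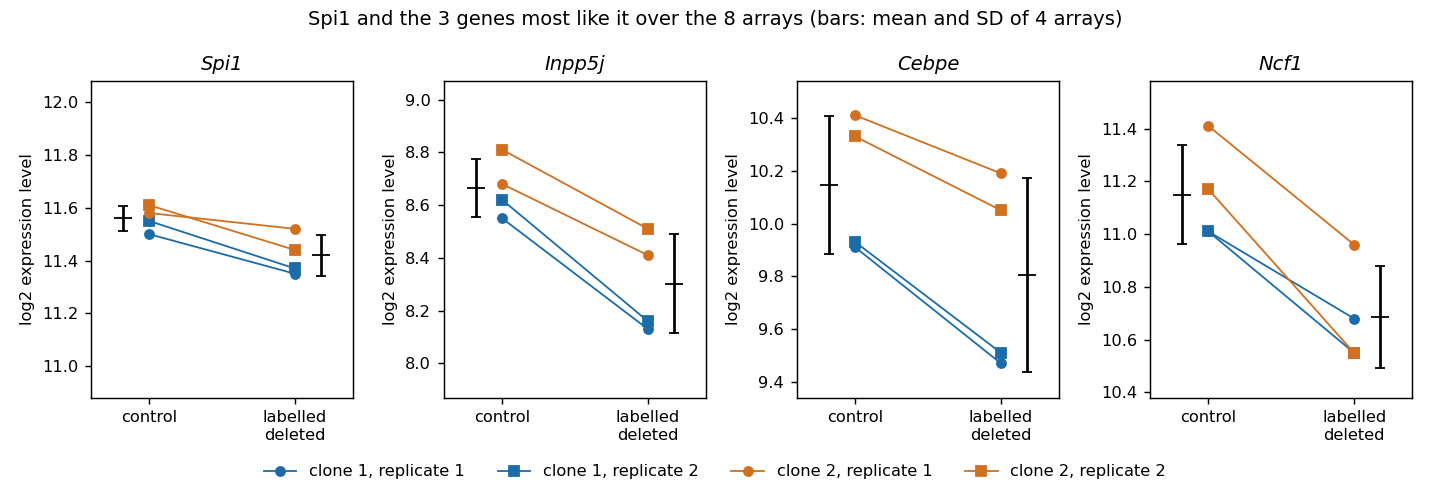
Log2 expression level of Spi1 and of the 3 genes with the highest correlation with it, by group, clone and replicate, with the mean and SD of 4 arrays as bars. All lines slope down, and those of Inpp5j, Cebpe and Ncf1 fall further than those of Spi1 on the group mean. The SD limit used to choose these 3 genes favours larger differences. Each panel has its own axis range.

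Among themselves the 7 genes varied together to different degrees. Over the 8 arrays the Pearson correlation of log2 level was 0.83 for Gfi1b with Klf4, 0.79 for Spib with Klf4 and 0.75 for Irf8 with Irf4. Spi1 correlated at 0.47 with Gfi1, 0.28 with Irf8 and -0.03 with Spib. The arrays share clones, sets and the shift with level given above, and these values are descriptions.

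No listed family relative of the 7 factors passed in the fit by set. Of all genes 0.953% passed, so lists as short as these would mostly hold none. None of 15 other ETS genes passed (median log2 difference 0.03, against 0.00018 over all genes, 10 of 15 above 0). Elk3, a ternary complex factor that can act as a repressor, had the smallest p among them, at 0.22 ± 0.05 (SE, n = 4 sets; adjusted p = 0.0762), and it passed in 4 of 17 alternatives: array weights (0.0282), repeated quantile normalization (0.0359), sets numbered 1 alone (0.0155) and without clone 2 replicate 2 (0.0214). None of 6 measured IRF genes passed either, with a median of 0.12 and 5 of 6 above 0. Irf5, a factor of inflammatory macrophages, was at 0.31 ± 0.09 (adjusted p = 0.226), and passed in 1 of 17 alternatives, the sets numbered 2 alone (0.0159). Of 12 other KLF genes none passed, 3 were above 0 and the median was -0.02, and Klf5 was at -0.23 ± 0.06 (adjusted p = 0.133).

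Partners and antagonists of these factors had a median of -0.0024, with 10 of 22 measured genes above 0. Among them, 2 of 22 passed as lower and none as higher, where 0.471% of all genes passed as lower. They were Cebpa, which directs granulocyte and monocyte progenitors beside PU.1 (-0.66 ± 0.08, SE, n = 4 sets; adjusted p = 0.00128; set differences -0.41, -0.55, -0.71 and -0.97), and Cebpe (-0.34 ± 0.05; adjusted p = 0.00406). Their calls held in 14 and 13 of 17 alternatives. The 7 corepressor genes used by GFI1 and GFI1B did not pass (median -0.0084), with Gse1 at -0.14 ± 0.06 (adjusted p = 0.685).

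Reported targets of PU.1 went in both directions. Of 24 measured genes 3 fell, 1 rose and 20 did not pass, with 10 of 24 above 0 and a median of -0.03; of all genes 0.953% passed in either direction and 0.471% as lower. The genes that fell were Ncf1 (-0.47 ± 0.04; adjusted p = 0.000198), Itgam, which encodes the integrin chain CD11b (-0.29 ± 0.06, SE, n = 4 sets; adjusted p = 0.0316) and Prtn3, a primary granule protease (-0.15 ± 0.03; adjusted p = 0.0267). Csf3r, the receptor for granulocyte colony-stimulating factor, rose (0.27 ± 0.05; adjusted p = 0.0302). Ncf1 passed in 13 of 17 alternatives, Itgam and Prtn3 in 8 and Csf3r in 7. Without clone 1 replicate 1 the calls of Itgam (0.0863), Prtn3 (0.0877) and Csf3r (0.0713) ended, likewise without clone 1 replicate 2 (0.279, 0.0603 and 0.143), and that of Csf3r also without clone 2 replicate 1 (0.304).

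In the target lists of the other factors at most 1 gene passed per list, where 0.953% of all genes passed. None of 16 reported IRF8 targets passed (median 6.4e-05, 8 of 16 above 0), and Pml, a nuclear body gene, was at -0.19 ± 0.05 (SE, n = 4 sets; adjusted p = 0.0997) and passed in 3 of 17 alternatives. Among 13 measured genes that GFI1 or GFI1B is reported to repress, only Spi1 passed, itself 1 of the 7 factors, and the list median was 0.0060. Of 8 measured KLF4 targets only Itgam, shared with the PU.1 list, fell (median -0.09, 2 of 8 above 0). Targets came from general reports in myeloid cells and not from binding data in these cultures.

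**Figure D4:**
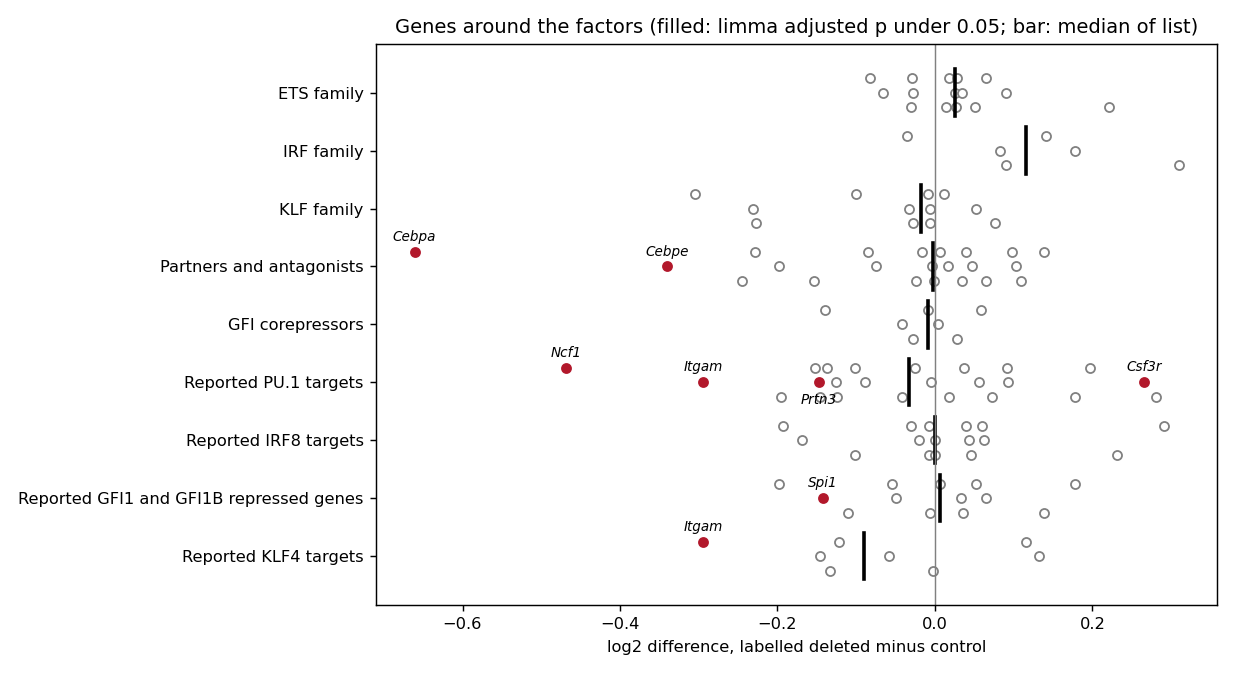
Log2 difference between labelled-deleted and control arrays for each measured gene of 9 lists, 1 point per gene, with black bars at list medians and filled points for genes with a limma adjusted p under 0.05. Filled points are Cebpa, Cebpe, Ncf1, Itgam, Prtn3 and Spi1 to the left of 0 and Csf3r to the right; Itgam stands in both target lists that hold it.

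A few single genes in the neutrophil, monocyte and progenitor marker lists passed as well, where 0.953% of all genes passed. Of 8 neutrophil markers Ngp, a granule protein gene, fell (-0.45 ± 0.09, SE, n = 4 sets; adjusted p = 0.0305) and the other 7 did not pass (median -0.10). Summed on the linear scale, the 8 markers ranged from 2622 to 8217 in control arrays and from 1993 to 8403 in arrays labelled deleted. Of 7 monocyte and macrophage markers F13a1 rose (1.12 ± 0.16, limma adjusted p = 0.00379) and 6 did not pass (median 0.12). The rise of F13a1 was 0.61 and 0.57 in the sets of clone 1 and 1.83 and 1.48 in those of clone 2. Sums of the 7 markers ran from 1420 to 2659 in control arrays and from 2119 to 3410 in arrays labelled deleted. These sums include F13a1, the brightest of the 7 (mean log2 level 9.81), and so do not describe a rise of the other 6. Of 8 progenitor genes Kit, the stem cell factor receptor (-0.36 ± 0.05; adjusted p = 0.00404), and Prtn3 fell. These calls depend on the fit: over 17 alternatives that of Kit held in 13, that of F13a1 in 11 and that of Ngp in 7. All 3 ended without the set block (1 for each), and F13a1 also with robust moderation (0.559). Ngp ended without clone 1 replicate 1 (0.0667) and without clone 1 replicate 2 (0.0923), and stood at -0.20 in the sets numbered 1 alone (0.0588). The part of these cell types in the Spi1 change was not tested.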

How the data were processed

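The deposited series table held 35556 probe sets on 8 Affymetrix arrays, hybridised with cDNA made from 300 ng of total RNA with whole-transcript kits, per the labels' protocols. Its values are log2 probe-set levels that the authors made with RMA, per the submitters' processing notes. Its version, the chip definition and the genome build were not given in the sources used here. Values ran from 2.60 to 13.8, which is the range of a base-2 scale. Array medians lay between 6.26 and 6.39. Symbols came from the platform annotation: 21789 probe sets had 1 symbol, 1621 several, and 12146 were unnamed. The brightest probe set was kept for each of 19938 genes. The number of arrays limits the precision.

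Fits used limma 3.58.1 in R 4.3.3 with the set as a block and a variance trend, two-sided, with Benjamini-Hochberg adjustment over all genes at 0.05; SEs and intervals are moderated (3 residual and 9.72 prior degrees of freedom). The code was tested on simulated data. Pairing by set follows the design text. Arrays of a set deviated together from their group means (r from 0.72 to 0.82). These deviations still hold the clone difference, so that r cannot separate a shared set from a shared clone. Among the labelled-deleted arrays, the one closest to each of the 4 controls was that of its own set. Replicates are labelled biological and the design text speaks of independent experiments. In fits with the set block, p-values measure the spread of the differences among 4 sets of 2 clones, moderated over all genes. The contrast between clones among control arrays was fitted without that block, so its p-values measure the spread between replicate cultures. Alternatives covered the block, clone and number as covariates, variance settings, array weights, normalization, probe set choice, low levels and left-out sets; the effect per number was added after the data were seen. Members, lists and alternatives were chosen with earlier results of these data known. Text names the 7 genes, Runx1 and Cbfb, up to 3 called genes per list or else the gene with the smallest p, and the 3 genes most like Spi1. Ngp, F13a1, Kit, the other progenitor markers, Mcpt8 and Cd79b were named after their values were seen.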

Additional observations from a re-analysis of the deposited data

How the results depend on the processing

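The changes over all sets were recomputed under 17 alternatives (16 for Spib and Irf4, which the limit to genes above the median level leaves out), those within and between clones under 7 to 9, and the contrast between replicate numbers under 1. The cause of the differences was not tested. Against 190 genes and 1 of the 7 factors, the paired replicate block left out gave 0 genes (317 at an unadjusted p under 0.05) and 0 factors (Spi1 -0.14, adjusted p = 1), clone as the only covariate 23 and 0 (Spi1 -0.14), clone and replicate number 78 and 0 (-0.14), no variance trend 13 and 0 (-0.14), all probe sets 0 (1834 probe sets unadjusted) and 0 (-0.14), array weights 388 and 1, sets numbered 1 alone 620 and 0 (-0.11) and sets numbered 2 alone 443 and 1. Robust moderation (-0.14) and centring (-0.17) gave 0 factors. Without 1 set the counts ran from 98 to 418 genes and from 0 to 1 factor, and Spi1 from -0.17 to -0.13. Signs turned for genes that never passed: in sets numbered 1 alone Spib was -0.12, Irf4 -0.077 and Gfi1 0.055, and in sets numbered 2 alone Gfi1b was 0.060 and Klf4 0.12. Without 1 set Klf4 ran from -0.16 to 0.022, Spib from -0.033 to 0.083, Gfi1 from -0.039 to 0.027, Gfi1b from -0.076 to 0.013 and Irf4 from -0.027 to 0.18. In clone 2, repeated quantile normalization gave Spib -0.012, and centring gave Spib -0.023, Irf8 -0.010 and Klf4 -0.013.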
